A study of Capra hircus with 198 samples.

Results

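The rostral colliculus of lactating goats was compared with that of dry goats in an expression atlas of the domestic goat. The members are the 6 libraries whose titles name this tissue, out of 198 libraries over 33 tissues. Of these, 3 come from goats labelled lactation (goats 2, 3 and 6) and 3 from goats labelled dry (goats 54, 64 and 73). Per the series' design text the 6 animals are adult Murciano-Granadina females, a Spanish dairy breed, and the labels name no treatment, no allele and no more exact age for either group. A dry goat is one that gives no milk at the time. Each goat gave 1 rostral colliculus library, so n is 3 goats per state, and whatever else differed between the goats of each state cannot be told apart from lactation. Total RNA was sequenced, and 1 library holds the RNA of all cells in the dissected piece.

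The rostral colliculus, called the superior colliculus in primates, forms the front part of the roof of the midbrain. It receives input from the retina, from hearing and touch, and from the cortex, and it drives movements of the eyes, head and ears toward a stimulus. Its output neurons release glutamate, many of its local neurons release GABA, and its deeper layers are crossed by myelinated fibres. Prolactin, oxytocin and steroid hormones, whose secretion changes with lactation, act on receptors in several brain regions.

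The label was checked first against SLC17A6, which encodes the vesicular glutamate transporter of subcortical neurons. It stood at 12.4, 10.5 and 6.81 CPM (counts scaled to the library's total count) in lactating goats 2, 3 and 6, against 13.6, 4.38 and 18.3 CPM in dry goats 54, 64 and 73. The dry goats held both the lowest and the highest value, so the groups overlapped. The mean of the 6 libraries, 11.0 ± 4.98 CPM (SD, n = 6), ranked 1 of 33 tissues, ahead of the pineal gland at 9.55 ± 10.6 CPM and the hypothalamus at 5.54 ± 2.85 CPM (SD, n = 6 each), and these spreads overlap. Between the states its log2 fold change was -0.18 (SE 0.42, adjusted p = 0.981, edgeR's quasi-likelihood test with Benjamini-Hochberg adjustment over all features, the test behind each adjusted p given here). SLC17A7, the transporter of cortical glutamate neurons, had no count in any library but that of goat 64 (0.996 CPM). Each library was closest by rank correlation to the rostral colliculus mean made without its own goat, with rho of 0.946 to 0.947 in lactating goats and 0.915 to 0.946 in dry goats. The next tissue was close behind, with rho of 0.932 to 0.934 in lactating goats and 0.910 to 0.930 in dry goats. In goat 64 the next tissue was the medulla oblongata, at 0.910 against 0.915.

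Total counts ran from 4.996 to 5.23 M in lactating goats and from 4.80 to 5.02 M in dry goats, so 3 counts, taken as the floor, stood at 0.573 to 0.626 CPM. Long noncoding RNA (lncRNA) features held 87.3% to 87.6% of counts in lactating goats and 85.9% to 87.9% in dry goats. The library of dry goat 64 stands apart from the other 5. Its rho to its own tissue was 0.915 and the lowest, and it had counts in 30767 features, against 27426 to 28154 in the others. Over all 39734 features, tested or not, 51 were more than 3-fold above all 5 other libraries in it and 39 more than 3-fold below. Any other library had 1 to 13 above and 3 to 13 below. Only features above 5 CPM in the higher library or libraries were counted here. The library of goat 64 also had the lowest summed level of neuronal and of astrocyte markers. Its deviations from its group correlated at -0.117 with those of the same goat's bridge and at -0.109 with those of its medulla oblongata, against -0.007 to 0.097 for the other goats. Between the bridge and the medulla oblongata the correlation was 0.189 in goat 64 and 0.027 to 0.152 in the other goats. Whether the rostral colliculus library of goat 64 carries the right goat number was not tested.

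Few features differed between the states. Of 18635 features with enough counts to test, 26 passed an adjusted p of 0.05 (0.14%), 10 of them higher in lactating goats (0.0537%) and 16 lower (0.0859%). At an unadjusted p under 0.05 there were 555 higher (2.98%) and 630 lower (3.38%), together 6.36% of those tested. The p-values measure the spread between these goats. In CPM, the states did not overlap in 676 features that were higher in lactating goats (3.63%) and in 1636 that were lower (8.78%). CPM scales by total count alone, while the test also used a TMM scaling factor per library. This factor was 0.930 to 0.995 in lactating goats and 0.983 to 1.071 in dry goats. Its part in the excess of lower features without overlap was not tested. The median log2 fold change over all features was 0.0016, and 50.2% were above 0. Of the 26 features, 20 belong to the deposited lncRNA annotation, 8 higher and 12 lower, which is 0.25% of 7994 lncRNA features tested. The other 6 lie outside it, 2 higher and 4 lower, which is 0.0564% of 10641. Without goat 2 the count was 5, without goat 3 it was 8 and without goat 6 it was 13, against 31 to 37 when a dry goat was left out. Without goat 64 it was 37, with 22 higher and 15 lower, and 22 of the 26 features were among them. Only 4 of the 26, DIO2-AS1, LINC26213, LINC64515 and LINC64594, kept an adjusted p under 0.05 whichever goat was left out. In one fit over the 3 brainstem tissues LINC64515 and LINC64594 did not pass (adjusted p = 0.371 and 0.0798).

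Among protein-coding genes, PLCXD1, MYH11, ZFP57 and NBEAL2 fell in lactating goats. PLCXD1 encodes a protein with the catalytic X domain of phospholipases C. It had 21.1, 30.5 and 38.5 CPM in lactating goats 2, 3 and 6, against 87.8, 98.8 and 70.7 CPM in dry goats 54, 64 and 73. All 3 lactating goats lay below the lowest dry goat by more than the range of either group. The log2 fold change was -1.45 (SE 0.21, adjusted p = 0.0117). Without goat 2 the adjusted p was 0.0626 and without goat 3 it was 0.0778. The gene lies on a scaffold that RefSeq does not place on a chromosome, and so does PLCXD1-OT1, an annotated lncRNA that overlaps it. PLCXD1-OT1 had 138, 134 and 163 CPM in lactating goats and 245, 261 and 246 CPM in dry goats, and it fell as well (log2 fold change -0.71, SE 0.12, adjusted p = 0.0382). This call ended in each of the fits that left out 1 goat, with an adjusted p of 0.062 without goat 6 and 0.213 without goat 3 as the lowest and highest. The sources used here do not say how reads in overlapping features were divided, so the pair may share reads.

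MYH11 encodes the myosin heavy chain of smooth muscle. It stood at 23.3, 33.8 and 41.2 CPM in lactating goats, against 82.6, 83.9 and 68.1 CPM in dry goats. The groups were separate, and the means of 32.8 ± 9.0 CPM and 78.2 ± 8.78 CPM (SD, n = 3 each) differed by more than 4 times the larger SD. The log2 fold change was -1.18 (SE 0.19, adjusted p = 0.0312), and the adjusted p was 0.144 without goat 2, 0.128 without goat 3 and 0.08 without goat 54. Other smooth muscle genes, listed after MYH11 was seen, were low and did not pass. LMOD1, a leiomodin of smooth muscle filaments, had 8.79, 8.50 and 8.81 CPM in lactating goats and 11.5, 2.99 and 14.1 CPM in dry goats, and CALD1, the caldesmon gene, had 11.3, 15 and 12.8 CPM in lactating goats and 12.5, 8.96 and 14.1 CPM in dry goats. ACTA2, the smooth muscle actin, reached 11.1 CPM in lactating goat 3 and at most 3.75 CPM in the other 5 libraries. Of the 7 genes of that list tested, MYH11 included, 5 had a positive and 2 a negative log2 fold change.

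ZFP57 encodes a zinc finger protein that, in mouse and human embryos, binds methylated imprinted regions and maintains their methylation. It had 145, 115 and 140.3 CPM in lactating goats, against 321, 328 and 231 CPM in dry goats, and the groups did not overlap. The log2 fold change was -1.06 (SE 0.16, adjusted p = 0.0151). The adjusted p was 0.0508 without goat 2, 0.0905 without goat 3 and 0.0614 without goat 6. In RefSeq the gene overlaps MOG, which encodes a myelin glycoprotein of oligodendrocytes. MOG had 13.4, 9.88 and 18.2 CPM in lactating goats and 21.5, 15.7 and 20.3 CPM in dry goats, with a log2 fold change of -0.39 (SE 0.27, adjusted p = 0.911). The tissue mean of ZFP57 was highest in the hippocampus (383 CPM), 213 CPM in the rostral colliculus and 0 in the spleen, with a median over tissues of 0.924 CPM. MOG counts followed another order, highest in lung at 83.3 CPM and next in subcutaneous fat at 67.9 CPM. The rostral colliculus, at 16.5 CPM, was at the median over tissues for MOG. Whether part of the ZFP57 reads stem from MOG transcripts was not tested.

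NBEAL2 encodes a BEACH domain protein needed for platelet granules in humans. It had 1.91, 3.16 and 1.0 CPM in lactating goats, against 15.2, 7.57 and 16.5 CPM in dry goats. All lactating goats were lower, on 31 counts in the 3 lactation libraries together and 193 in the 3 dry ones. The log2 fold change was -2.58 (SE 0.46, adjusted p = 0.0391), and the call held without goat 64 (0.0122) but not without goat 2 (0.197), 3 (0.0778), 6 (0.155), 54 (0.139) or 73 (0.141). RefSeq places another gene, LOC102183373, inside its span, and that gene averaged 0.165 CPM over the 6 libraries.

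**Figure D1:**
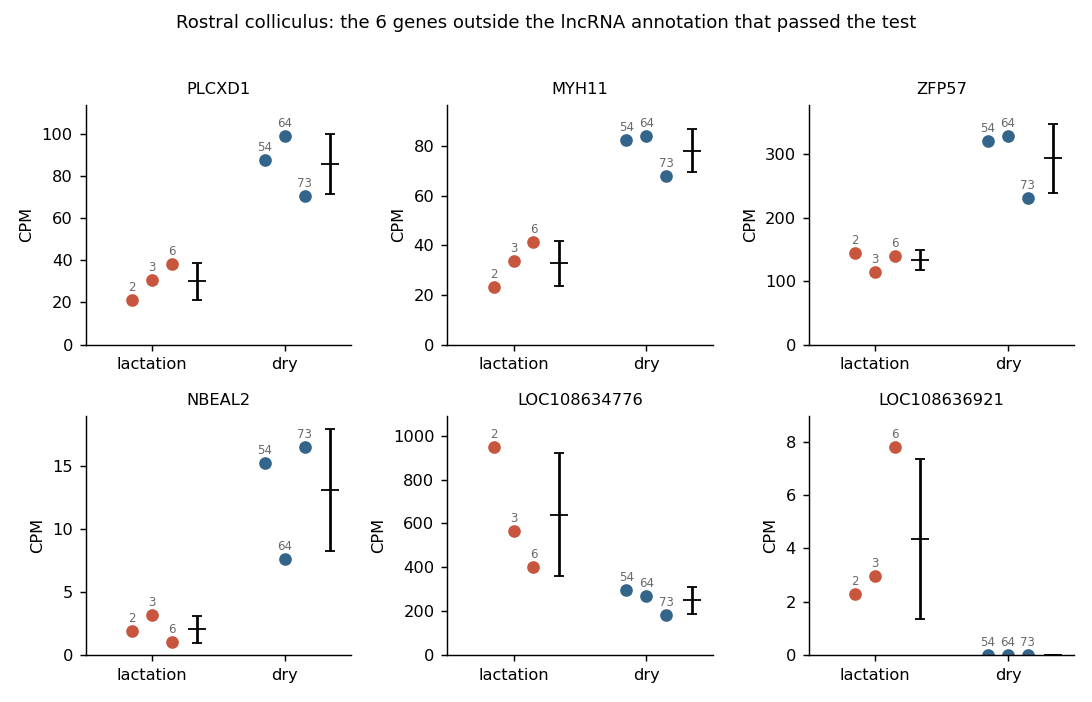
CPM (vertical axes, each from 0) of the 6 genes outside the lncRNA annotation that passed the test, with 1 point per goat, labelled by goat number, lactation on the left and dry on the right of each panel; horizontal ticks and bars are the mean and SD of 3 goats. PLCXD1, MYH11, ZFP57 and NBEAL2 are lower in every lactating goat than in any dry goat, and LOC108634776 and LOC108636921 are higher.

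On the side of lactation, 2 features at the DIO2 gene rose. DIO2 encodes the type 2 deiodinase, which turns thyroxine into active triiodothyronine and is made in the brain mainly by astrocytes. DIO2-AS1, the annotated antisense lncRNA of this gene, had 169, 145 and 325 CPM in lactating goats 2, 3 and 6, against 55.6, 66.0 and 70.4 CPM in dry goats. The lowest lactating goat was above 2 times the highest dry goat, and goat 6 was the highest of all. The log2 fold change was 1.80 (SE 0.24, adjusted p = 0.00652), and the adjusted p stayed between 0.00132 and 0.0256 when any 1 goat was left out. LOC108636921, a RefSeq lncRNA that overlaps DIO2, had 2.29, 2.96 and 7.81 CPM in lactating goats and no count in the 3 dry goats. Against a floor of 3 counts over the dry libraries it was at least 21.5-fold higher (adjusted p = 0.0392), on 66 counts in all, and the adjusted p without any 1 goat ran from 0.0579 without goat 64 to 0.293 without goat 6.

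DIO2 itself did not pass. It had 17.9, 20.4 and 22.7 CPM in lactating goats and 19.6, 23.5 and 24.2 CPM in dry goats, with a log2 fold change of -0.06 (SE 0.22, adjusted p = 0.993). The groups overlapped within a narrow range. Library preparation kept the strand, but whether counting used it is not stated, so reads of DIO2 and its antisense feature cannot be told apart with certainty. Of the other genes of thyroid hormone supply and response, THRA and THRB, the nuclear receptors, had log2 fold changes of -0.01 and -0.56, and KLF9, a transcription factor induced by the hormone, one of 1.04 (adjusted p = 0.66). DIO3, the inactivating deiodinase, had counts in goat 64 alone (0.398 CPM).

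The other riser outside the lncRNA annotation was LOC108634776, a protein-coding prediction on an unplaced scaffold for which no role is given. It had 950.2, 565 and 403 CPM in lactating goats and 297, 268 and 181 CPM in dry goats. The groups were separate, with goat 2 far above the others (log2 fold change 1.46, SE 0.26, adjusted p = 0.0386). Without goat 2 the log2 fold change was 1.03 (adjusted p = 0.13), and the adjusted p was 0.0905 without goat 3, 0.0792 without goat 54 and 0.141 without goat 73.

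The lncRNA with the smallest p was LINC26213, an intergenic feature of 2465 bases. It had 39.0, 37.2 and 31.7 CPM in lactating goats 2, 3 and 6, against 279, 166 and 276 CPM in dry goats 54, 64 and 73. The lactating goats lay within 8 CPM of each other, and all were more than 4 times below the lowest dry goat. The log2 fold change was -2.65 (SE 0.18, adjusted p = 5.75e-06). In each of the 32 other tissues of the same goats the 3 lactating goats also lay below the 3 dry goats without overlap. Over all features that reached 1 CPM in those tissues, a lower level without overlap was seen in 7.35% and a higher one in 12.2% of feature and tissue pairs. The tissues share their animals and are no independent support.

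Other lncRNAs that passed also separated the same goats elsewhere. LOC106503576-OT1 had 7.45, 9.88 and 6.12 CPM in lactating goats and 0.209, 0.398 and 0.403 CPM in dry goats, those of the dry goats under the floor (log2 fold change 4.52, SE 0.60, adjusted p = 0.00652). It was separated in the same direction in 28 of 32 other tissues, and LOC106504020-OT1 (log2 fold change 1.60, adjusted p = 0.0321) likewise in 28. DIO2-AS1 was so separated in 19 tissues and in the opposite direction in 1, and MILR1-OT1, which overlaps the gene of a mast cell receptor, in 17 and 2. MILR1-OT1 had 162, 233 and 239 CPM in lactating goats and 122, 101 and 101 CPM in dry goats (log2 fold change 1.05, SE 0.14, adjusted p = 0.0086). Without goat 3 its adjusted p was 0.0587, that of LOC106503576-OT1 was 0.0508 without goat 2 and 0.0587 without goat 3, and that of LOC106504020-OT1 was 0.0811 without goat 2, 0.13 without goat 6 and 0.0928 without goat 73.

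The protein-coding genes that fell did not follow the goats in this way. PLCXD1 was separated in the same direction in 4 of 32 other tissues and in the opposite direction in 8, MYH11 in 5 and 7, NBEAL2 in 4 and 7, and ZFP57 in 1 and 3 of the 20 tissues where it reached 1 CPM. Over all features, 7.35% of feature and tissue pairs were separated as lower in lactating goats and 12.2% as higher. LOC108638465-AS1, an antisense lncRNA, had 31.1, 33.7 and 35.3 CPM in lactating goats and 77.4, 98.4 and 66.6 CPM in dry goats (log2 fold change -1.20, SE 0.18, adjusted p = 0.0162). It was separated in this direction in 0 and in the opposite direction in 9 of 32 other tissues. Its adjusted p was 0.122 without goat 2, 0.0905 without goat 3 and 0.0614 without goat 6.

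Further lncRNAs that passed were separated in fewer other tissues than DIO2-AS1 or MILR1-OT1, and single goats decided their calls. The same and the opposite direction were seen in 14 and 1 of 29 tissues for ZNF385D-AS1. Of 32 tissues, they were seen in 11 and 0 for LOC108635079-OT1 and in 10 and 1 for LOC108638393-OT1. For LINC63266 the counts were 2 and 2, and for LINC42037 they were 4 and 4. LOC108635079-OT1 had 60.7, 4.89 and 67.5 CPM in lactating goats and 0.815, 4.02 and 1.45 CPM in dry goats (log2 fold change 4.47, SE 0.75, adjusted p = 0.0321), so goat 3 lay just above dry goat 64. Leaving out goat 2, 6, 54 or 73 gave it an adjusted p of 0.155, 0.1, 0.124 and 0.119 in that order. ZNF385D-AS1 had 77.7, 46.9 and 50.9 CPM in lactating goats and 29.9, 21.5 and 21.8 CPM in dry goats (log2 fold change 1.36, SE 0.23, adjusted p = 0.0321), and its call ended without goat 2 (0.162), 3 (0.0538), 6 (0.0575) or 73 (0.0928). LOC108638393-OT1, at 1562 to 2067 CPM in lactating goats and 1056 to 1299 CPM in dry goats, had the smallest change of those that rose (log2 fold change 0.70, SE 0.12, adjusted p = 0.0314), and its call ended without goat 2 (0.13), 6 (0.0909) or 54 (0.114). LINC63266 rose (log2 fold change 1.46, SE 0.26, adjusted p = 0.0382) and LINC42037 fell (-0.75, SE 0.14, adjusted p = 0.0452), and both lost the call without goat 2, 3, 6 or 73, LINC42037 also without goat 64, at an adjusted p of 0.0516 to 0.223.

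Unplaced parts of the genome assembly held many of the features. Of the 26 features, 13 lie on unplaced scaffolds, which is 1.41% of 923 such features tested, against 0.0734% of 17712 others. Among them are 8 intergenic lncRNAs that fell. Their summed level was 152, 251 and 181 CPM in lactating goats 2, 3 and 6, against 797, 6489 and 922 CPM in dry goats 54, 64 and 73. All dry goats were above all lactating goats, and goat 64 was above the other dry goats by about 7-fold. LINC64450 and LINC64525 held 92.4% of the sum in goat 64. LINC64450 had 75.4, 147 and 108 CPM in lactating goats and 405, 3760.1 and 468 CPM in dry goats (log2 fold change -3.78, SE 0.67, adjusted p = 0.0382). Without goat 64 its log2 fold change was -1.87 with an adjusted p of 8.13e-05, so the call did not rest on that library, while without goat 2 the adjusted p was 0.261, without goat 3 it was 0.164 and without goat 6 it was 0.18. LINC64525, LINC63970, LINC64344, LINC64638 and LINC65207 had log2 fold changes of -3.94 to -3.20 (adjusted p of 0.0151 to 0.0457), all highest in goat 64, and each lost the call without goat 2, 3 or 6, with adjusted p-values of 0.0778 to 0.257. Without goat 64 their log2 fold changes were -2.02, -2.24, -2.41, -2.43 and -1.89 in the order named, and LINC65207 then lost the call too (0.0756).

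LINC64515, on another such scaffold, had no count in the 3 lactating goats and 22.1, 9.45 and 29.1 CPM in the dry goats. It was at least 103-fold lower against a floor of 3 counts over the lactation libraries (adjusted p = 0.000634). The direction was not the same elsewhere in these goats. LINC64515 averaged 5.96 CPM in lactating and 2.7e-31 CPM in dry goats in the medulla oblongata, against 3.86e-08 and 8.31 CPM in the bridge. Of 25 other tissues where it reached 1 CPM, it was separated in the same direction in 2 and in the opposite direction in 5. Over all features these shares were 7.35% lower and 12.2% higher. LINC64594 had 13.9, 6.48 and 9.95 CPM in lactating goats and 38.5, 53.4 and 74.1 CPM in dry goats (log2 fold change -2.35, SE 0.30, adjusted p = 0.00652). Neither was highest in goat 64. The highest goat changed between tissues: a dry goat had the highest sum of the 8 lncRNAs in 26 of 33 tissues, and this was goat 64 in 11. Both counts include the rostral colliculus, in which the 8 were picked for being lower in lactating goats.

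**Figure D2:**
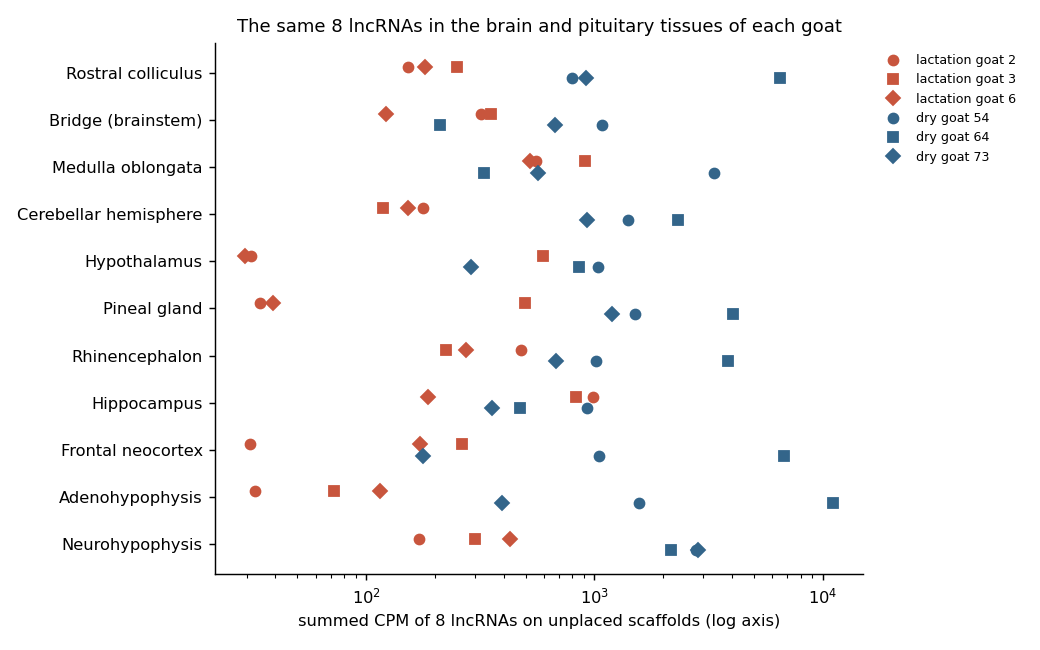
Summed CPM (horizontal log axis) of the 8 intergenic lncRNAs on unplaced scaffolds that fell in the rostral colliculus, shown in 11 brain and pituitary tissues (rows), with 1 point per goat, lactating goats in red above dry goats in blue. In the rostral colliculus the sums are 152 to 251 CPM in lactating goats and 797 to 6489 CPM in dry goats, with goat 64 highest, while in the bridge and medulla oblongata goat 54 is highest.

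Genes outside the lncRNA annotation that came nearest to passing are given as values. LOC106503269, a protein-coding prediction that overlaps GFAP, had 1859, 1955 and 1916 CPM in lactating goats and 1628, 1328 and 1217 CPM in dry goats (log2 fold change 0.54, SE 0.11, adjusted p = 0.0768). Its groups did not overlap. Its tissue mean was highest in the medulla oblongata and next in the bridge, as was that of GFAP. SGPL1, the lyase that degrades sphingosine 1-phosphate, had 24.1, 28.8 and 36.0 CPM in lactating goats and 17.7, 11.8 and 14.1 CPM in dry goats (log2 fold change 1.11, adjusted p = 0.107). GDA, guanine deaminase, and DENND1B, an activator of Rab GTPases, had log2 fold changes of 1.78 and 2.15 at an adjusted p of 0.234 each, on no more than 15.2 CPM in any library, and the tRNA feature TRNAE-UUC_23 one of 2.50 (adjusted p = 0.157).

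On the lower side, ARL2BP, a binding partner of the small GTPase ARL2, had 51.0, 56.5 and 66.3 CPM in lactating goats and 113, 109 and 92.4 CPM in dry goats (log2 fold change -0.78, SE 0.15, adjusted p = 0.06). NFS1, the cysteine desulfurase of iron-sulfur cluster assembly, had 4.83, 3.98 and 7.48 CPM in lactating goats and 17.6, 16.0 and 19.4 CPM in dry goats (log2 fold change -1.63, SE 0.31, adjusted p = 0.0606), and it overlaps ROMO1. MYH13, the myosin of eye muscles, had 0.382, 0 and 0.300 CPM in lactating goats and 5.84, 6.01 and 2.78 CPM in dry goats (adjusted p = 0.0592). In all 3 the groups were separate. RP9 had an adjusted p of 0.0863 and LOC108634916, on an unplaced scaffold and highest in goat 64 at 83.3 CPM, one of 0.057.

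No cell type marker passed, in any of 14 lists. Of the 31 lists of markers and pathways with at least 3 members tested, 21 had a median that changed sign without at least 1 goat, 14 of them without goat 64. In bulk tissue, fewer cells of a type and less RNA per cell cannot be told apart. The list of oligodendrocyte and myelin genes had a single direction: of 12 tested, 0 had a positive and 12 a negative log2 fold change, with a median of -0.48 against 0.0016 over all features, and 3 were lower at an unadjusted p under 0.05, as were 3.38% of all features. Its summed level was 294, 242 and 310 CPM in lactating goats 2, 3 and 6, against 421, 345 and 453 CPM in dry goats 54, 64 and 73. The sums did not overlap. The 12 include MOG, whose tissue means were highest in lung and subcutaneous fat, so its counts here are no clear measure of myelin. MBP, the main protein of compact myelin, had 125, 106 and 131 CPM in lactating goats and 140, 154 and 159 CPM in dry goats (log2 fold change -0.24, adjusted p = 0.865). MOBP, another myelin protein, had 44.2, 51.8 and 28.6 CPM in lactating goats and 69.0, 74.1 and 63.8 CPM in dry goats (log2 fold change -0.65, SE 0.20, adjusted p = 0.471). MAG, an adhesion protein of the inner myelin face, had 9.56, 4.94 and 7.01 CPM in lactating goats and 22.3, 9.36 and 19.9 CPM in dry goats (log2 fold change -1.15, SE 0.36, adjusted p = 0.461). The list median ran from -0.63 without goat 2 to -0.27 without goat 3.

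Oligodendrocyte precursor markers had 1 of 7 positive and 6 negative, a median of -0.31 and sums of 62.8, 63.3 and 75.6 CPM in lactating goats against 84.0, 95.7 and 95.5 CPM in dry goats. BCAS1, which marks oligodendrocytes that start to make myelin, had a log2 fold change of -0.56 (adjusted p = 0.682) with separate groups. Without goat 3 this list's median was -0.08. Microglia markers had a median of -0.13 over 7 tested, and CSF1R, the receptor these cells need to survive, had 11.3, 14.2 and 13.2 CPM in lactating goats and 23.1, 19.7 and 19.1 CPM in dry goats (log2 fold change -0.60, adjusted p = 0.682). TMEM119, C1QA, C1QB, C1QC and TYROBP were too low to test.

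Astrocyte markers lay the other way. Of 10 tested, 9 had a positive and 1 a negative log2 fold change, with a median of 0.38, and 2 were higher at an unadjusted p under 0.05, as were 2.98% of all features. The sums were 477, 403 and 339 CPM in lactating goats and 341, 199 and 397 CPM in dry goats, and they overlapped. GFAP, the intermediate filament of astrocytes, had 175, 131 and 107 CPM in lactating goats and 110, 55.8 and 106 CPM in dry goats (log2 fold change 0.71, SE 0.22, adjusted p = 0.469). S100B had a log2 fold change of 0.64 (adjusted p = 0.606), while AQP4, the water channel of astrocyte endfeet, had one of 0.16. Goat 64 was lowest in the sum, and without it the list median was 0.17, against 0.75 without goat 73.

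Neuronal markers were near the middle. The 13 pan-neuronal genes tested had a median of 0.12, with 7 positive and 6 negative, and their sums were 482, 424 and 414 CPM in lactating goats and 417, 267 and 556 CPM in dry goats. The dry goats spanned the lactating goats, with goat 64 lowest and goat 73 highest, and the median was -0.16 without goat 64 and 0.36 without goat 73. GAD2, which makes GABA, had 63.2, 52.8 and 58.8 CPM in lactating goats and 53.1, 41.6 and 68.1 CPM in dry goats (log2 fold change 0.19, adjusted p = 0.948). SYN1, a vesicle protein whose gene overlaps ARAF, CT55 and TIMP1, had the lowest p of the list, with 1.72, 0.198 and 1.20 CPM in lactating goats and 7.30, 4.58 and 3.42 CPM in dry goats (log2 fold change -2.16, SE 0.67, adjusted p = 0.46).

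Of the markers of neighbouring tissues, those of the pineal gland and the cerebellum were low in both groups. The 9 pineal markers summed to 6.31 to 7.11 CPM in lactating goats and 6.67 to 9.56 CPM in dry goats, with ASMT, CRX and GNGT1 at 0 in all 6, and the 8 cerebellar markers summed to 4.84 to 10.8 CPM in lactating goats and 2.56 to 6.01 CPM in dry goats. Of the ventral midbrain markers, TH, SLC6A3 and CHAT, which mark dopamine and cholinergic neurons, stayed under 1 CPM in every library, while SLC18A2, the vesicular monoamine transporter, had 188 to 229.6 CPM in lactating goats and 183 to 262 CPM in dry goats. Vessel markers had a median of 0.17 over 10 tested with PECAM1 lowest in p, and ependyma and choroid plexus 0.07 over 3 with DNAH9. Meningeal markers had a median of -0.25 over 4, with COL1A1 at 1.72, 0.988 and 1.20 CPM in lactating goats and 6.46, 2.99 and 2.21 CPM in dry goats (adjusted p = 0.756). Blood rested on 1 tested gene, AHSP, with a log2 fold change of 0.08.

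**Figure D3:**
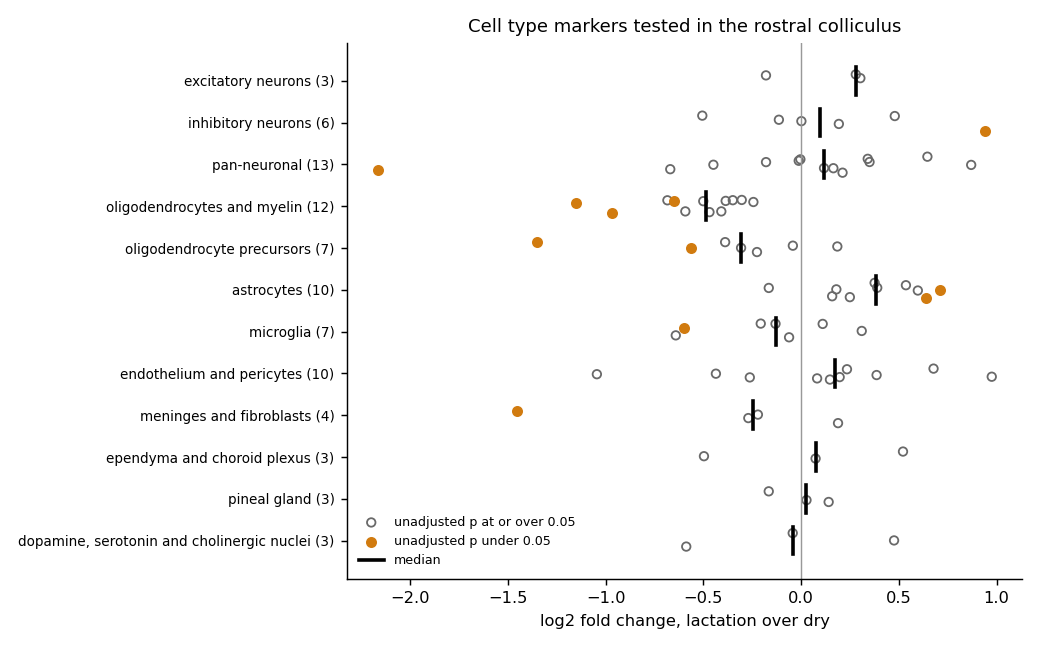
log2 fold change of lactation over dry (horizontal axis) for each cell type marker tested in the rostral colliculus, by list (rows, with the number tested; lists with under 3 tested are left out). Open circles have an unadjusted p at or over 0.05, filled circles one under 0.05, and bars are medians; all 12 myelin markers lie below 0 and 9 of 10 astrocyte markers above it, and none passed after adjustment.

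**Figure D4:**
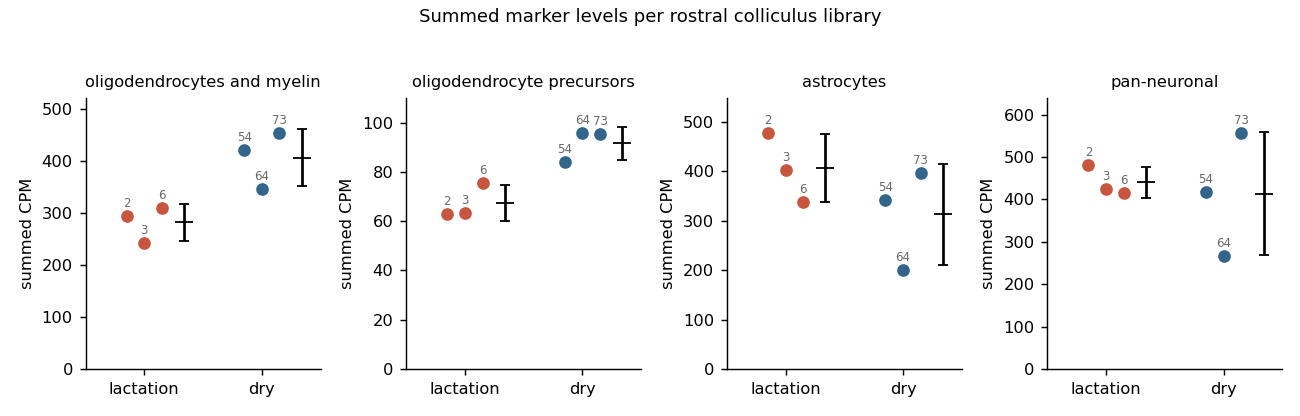
Summed CPM (vertical axes, each from 0) of 4 marker lists in each library, lactation on the left and dry on the right, with goat numbers; ticks and bars are the mean and SD of 3 goats. The myelin and precursor sums of the states do not overlap, while the astrocyte and neuronal sums overlap and are lowest in dry goat 64.

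Genes of synaptic signalling and excitability also gave no member that passed. Of 13 GABA and glycine receptor genes tested, 10 were positive and 3 negative, with a median of 0.27, and 3 were higher at an unadjusted p under 0.05, a bound that 2.98% of all features met on that side. GABRA5, a subunit of receptors outside synapses, had 3.44, 3.56 and 2.80 CPM in lactating goats and 0.417, 0.797 and 0.805 CPM in dry goats (log2 fold change 2.31, SE 0.67, adjusted p = 0.363). GABRA4, another subunit, had a log2 fold change of 1.20 (adjusted p = 0.769). The list median was 0.06 without goat 64 and 0.61 without goat 73. Glutamate receptors had a median of 0.12 over 17 tested, synaptic vesicle genes 0.13 over 21, sodium and calcium channels 0.16 over 17 and potassium channels 0.02 over 18. Their members of lowest p were GRM2 (log2 fold change 1.82, adjusted p = 0.578), SYN1, CACNA1D (0.72, adjusted p = 0.644) and KCNJ10, the potassium channel of astrocytes (0.61, adjusted p = 0.615). Neuropeptides and their receptors had a median of -0.29 over 6 tested of 28 with TACR3, a tachykinin receptor, lowest in p (median 0.19 without goat 64 and 0.08 without goat 73), and midbrain transcription factors 0.01 over 12 of 26 with TAL1, a factor of GABA neurons of the brainstem.

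Receptors for the hormones of lactation were present and showed no call. OXTR, the oxytocin receptor, had 18.7, 16.4 and 21.4 CPM in lactating goats and 18.1, 19.7 and 16.3 CPM in dry goats (log2 fold change 0.14, SE 0.24, adjusted p = 0.975). PRLR, the prolactin receptor, had 26.1, 27.1 and 29.2 CPM in lactating goats and 30.0, 32 and 39.1 CPM in dry goats, and its log2 fold change of -0.21 did not pass (SE 0.19, adjusted p = 0.947). ESR1, oestrogen receptor alpha, had 3.25, 4.94 and 4.0 CPM in lactating goats and 6.53, 9.79 and 8.66 CPM in dry goats, the lowest p of this list (log2 fold change -0.96, SE 0.39, adjusted p = 0.701). Over 12 tested the median was -0.05. GHR, the growth hormone receptor, stood at 34.6 CPM in goat 6 and at 9.80 to 13.0 CPM in the other 5.

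Glucocorticoid response genes had a median of 0.08 over 13 tested (-0.0245 without goat 64), with 3 higher at an unadjusted p under 0.05 (2.98% over all features). FKBP5, a co-chaperone of the glucocorticoid receptor that the hormone induces, had 5.16, 2.96 and 7.01 CPM in lactating goats and 1.25, 1.39 and 0.604 CPM in dry goats. The groups were separate, on 77 and 16 counts in all, and the change did not pass (log2 fold change 2.27, SE 0.60, adjusted p = 0.276). In the bridge of the same goats FKBP5 rose (2.61, adjusted p = 0.0353) and in the medulla oblongata it had 2.24 (adjusted p = 0.267). ZBTB16 and KLF9, also induced by glucocorticoids, had log2 fold changes of 0.89 and 1.04, while TSC22D3 and PER1 had -0.15 and -0.56.

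The remaining lists had no call. Clock genes had 0.13 over 13 tested with NR1D2 lowest in p (0.94, adjusted p = 0.82), chaperones -0.03 over 18 with HSPB8 (1.46, adjusted p = 0.775), and cholesterol synthesis 0.11 over 9 with INSIG1, a brake on that pathway (1.64, adjusted p = 0.536). Glycolysis and glucose transport had 0.09 over 17 with LDHB (-0.47, adjusted p = 0.732), and calcium signalling -0.06 over 18 with RYR1 (-0.76, adjusted p = 0.841). Giant cytoskeletal proteins had 0.10 over 14. Iron and oxygen genes had 0.38 over 6 with FTH1, ferritin heavy chain (0.73, adjusted p = 0.673). Interferon response had -0.13 over 9 with IFI6 (-1.30, adjusted p = 0.663). In the list of complement, cytokine and reactivity genes, with a median of -0.02 over 7, IL6 had 10.7, 7.71 and 12 CPM in lactating goats and 18.4, 21.1 and 20.3 CPM in dry goats (log2 fold change -0.89, SE 0.27, adjusted p = 0.41). Of 21 immediate-early genes only 2 had enough counts, and JUN had a log2 fold change of 0.30.

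Whether the effect of state in the rostral colliculus differs from that in the bridge and the medulla oblongata, the 2 other brainstem tissues of the same goats, was tested directly over 18 libraries. No feature of 22271 passed in edgeR's test of this difference (0%), with 1118 at an unadjusted p under 0.05 (5.02%) and a smallest adjusted p of 0.373. With each goat as a block there were again 0 calls. Within each tissue, 61 features passed in the bridge (0.328%) and 23 in the medulla oblongata (0.123%). Of the features that passed in the rostral colliculus, 7 also passed in at least 1 of these tissues. LINC26213 fell in all 3 tissues, with -3.30 in the bridge (adjusted p = 1.91e-07) and -2.35 in the medulla oblongata (adjusted p = 7.1e-05). PLCXD1 fell in the bridge (-1.31, adjusted p = 0.0251), and LOC106504020-OT1 rose in both (2.13, adjusted p = 0.000646, and 1.81, adjusted p = 0.0385). In the bridge MILR1-OT1 (0.81, adjusted p = 0.0227) and LOC108635079-OT1 (2.52, adjusted p = 0.0353) rose and LINC64594 fell (-2.59, adjusted p = 0.0366), and in the medulla oblongata LINC42037 fell (-1.03, adjusted p = 0.0408).

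Called genes were picked by their effect in the rostral colliculus libraries, and the same effect enters the difference between tissues. Among them, ZFP57 had the lowest unadjusted p for this difference. It averaged 365 CPM in the bridge of lactating goats and 400.3 CPM in that of dry goats, and 360.2 and 333 CPM in the medulla oblongata. Its effect in the rostral colliculus minus the mean of the other tissues was -0.96 (SE 0.23) at an unadjusted p of 0.000283, and the adjusted p was 0.592. For NBEAL2 this difference was -2.14 (SE 0.78), for MYH11 -0.75 (SE 0.28), for DIO2-AS1 1.07 (SE 0.33) and for PLCXD1 -0.52 (SE 0.36), none of which passed. MYH11 had a log2 fold change of -0.66 in the bridge (adjusted p = 0.155) and -0.19 in the medulla oblongata (adjusted p = 0.953). NFS1 and MYH13, which were not called, had differences of -1.85 (SE 0.38) and -4.47 (SE 0.97). Their unadjusted p in the same edgeR test, 5.02e-05 and 0.000102, was lower than that of ZFP57. Neither passed (adjusted p = 0.373 and 0.378).

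**Figure D5:**
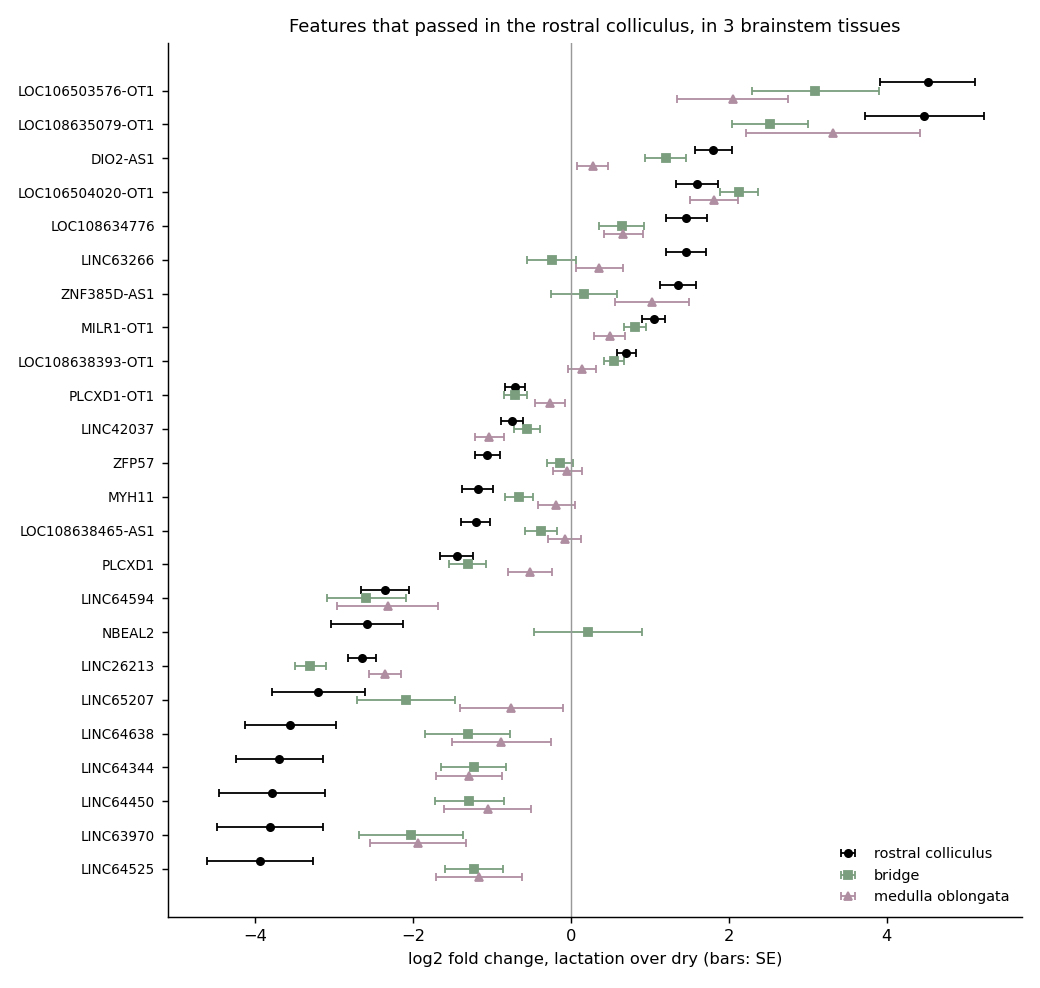
log2 fold change of lactation over dry (horizontal axis, bars are SE) for 24 features that passed in the rostral colliculus (circles), with the same features in the bridge (squares) and medulla oblongata (triangles) where tested; LINC64515 and LOC108636921, each with a group at 0, are left out. LINC26213 lies between -3.30 and -2.35 in all 3 tissues, while ZFP57 is at -1.06 in the rostral colliculus and at -0.14 and -0.04 in the other tissues.

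List medians are given side by side for the 3 tissues, which share their goats, and no test compared the lists. The myelin list, with 12 of 12 negative and a median of -0.48 in the rostral colliculus, had 10 positive and 3 negative with a median of 0.49 in the bridge and 0.06 in the medulla oblongata. Pan-neuronal genes had a median of 0.12 in the rostral colliculus, -0.55 in the bridge and -0.97 in the medulla oblongata, and synaptic vesicle genes 0.13, -0.56 and -0.57. In the rostral colliculus the pan-neuronal median was -0.16 without goat 64, and the synaptic vesicle median was -0.13 without goat 64 and -0.0645 without goat 2. Astrocyte genes had 0.38, 0.55 and 0.03. No member of these lists passed in the test of the difference.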

How the data were processed

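RNA was extracted with a RiboPure kit and strand-specific libraries were made with a VAHTS Universal V8 kit, per the labels' protocols. STAR, StringTie and edgeR are listed, with no version or role, per the submitters' processing notes, and the sources used here give neither build nor strand setting. The gene table holds expected counts deposited by the authors for 39734 features, of which 36.5% of values above 0 had a fraction, and they were rounded. The authors also deposited natural log offsets (library size times relative gene length), used only as an alternative scaling. The lncRNA annotation sorted features, and RefSeq's table of assembly ARS1.2 gave names and overlaps (23489 of 25223 features outside the lncRNA annotation matched by symbol).

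edgeR 4.0.16 in R 4.3.3 was fitted to the 6 libraries (TMM scaling, filterByExpr with a minimum count of 10, quasi-likelihood F-test, adjusted p under 0.05). SE is the log2 fold change over the root of F. A second fit over 18 libraries tested the difference of state effects between tissues. Levels are CPM of the unrounded counts, and 3 counts were the floor, which covers counting error only. The goat number pairs the tissues because the same animals were sampled. Deviations of same-numbered libraries correlated at -0.117 to 0.097 between rostral colliculus and the other tissues, and goat 64 gave the 2 most negative values. DESeq2 1.42.0 and other scalings, filters and goat subsets were alternatives. The fits were also run on simulated counts, with a smaller spread than these data, no library standing apart and changes only in well-counted features. That run does not speak to calls at low counts, and its outcome is not reported here.

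Named are SLC17A6; features that passed, up to 12 coding and 6 lncRNA features per direction, others by count or with a remark; the 5 coding genes of lowest p per direction where fewer than 5 passed; and each list's member of lowest p, some of which are not reported here. Other members and overlapping genes were added after their values were seen. The lists and the rule were chosen with earlier results of these data known. Mitochondrially encoded genes were not analysed here.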

Additional observations from a re-analysis of the deposited data

Results flagged for a closer look

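The summed level of the 8 intergenic lncRNAs on unplaced scaffolds reached 6489 CPM in dry goat 64, far from the other 5 libraries of the rostral colliculus, which held 152, 251 and 181 CPM in lactating goats and 797 and 922 CPM in dry goats 54 and 73. The gap from 6489 CPM to the next library was 0.878 of the whole range, above Dixon's 95% critical value for 6 samples. It was the only one of 19 values checked to pass, and chance passes about 1 in 20 such groups. That rate does not hold as it stands for this sum. The 8 lncRNAs were picked in these 6 libraries for being lower in lactating goats, so a dry library as the highest was built in. The check also pooled both states. Goat 64 had the highest sum in the adenohypophysis (11114 CPM) and the frontal neocortex (6766 CPM) as well. In the bridge it had 209.7 CPM and in the medulla oblongata 329 CPM. The part of depth, RNA quality or dissection in this value was not tested.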

How the results depend on the processing

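The count of 26 features in the rostral colliculus was 27 with DESeq2 size factors and 19 with the authors' offsets. It was 61 with DESeq2's Wald test (21 of the 26 among them), 225 with no low-count filter, 11 with coding features only, 6 with one fit over 3 brainstem tissues and 13 with features on unplaced scaffolds left out, a setting chosen after seeing the data. Without 1 goat it ran from 5 to 37. DIO2-AS1 and LINC26213 passed under every alternative run. The count of 0 for the difference between tissues was 3 against the medulla oblongata alone and ran from 0 to 1 without 1 goat. With the goat as a replicate block it was 0, with 1150 features at an unadjusted p under 0.05, so the pairing changed no call.

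Some values that did not pass changed sign without 1 goat, where the log2 fold change ran from -0.081 to 0.27 for AHSP, -0.081 to 0.99 for CAMK2A, -0.38 to 0.17 for OTX2 and -0.56 to 0.26 for SLC17A6. The difference between tissues likewise ran from -0.0057 to 0.37 for LINC26213, -0.065 to 0.24 for LINC42037, -3.17 to 0.16 for LINC63970, -0.21 to 0.53 for LINC64594 and -3.25 to 0.014 for LINC65207. It was -0.29 for LINC26213 and -0.034 for LINC64594 against the medulla oblongata alone, and -0.18 for LINC42037 and 0.0068 for PLCXD1-OT1 against the bridge alone. The causes were not tested.

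With 3 goats per state, 22 of the 26 calls ended without at least 1 goat, 17 to 21 of them when a lactating goat was left out and 4 to 9 when a dry goat was. Genes at a few CPM, such as FKBP5, GABRA5 and NBEAL2, rest on few counts at totals near 5 M. An exact permutation test of 3 against 3 cannot go below a two-sided p of 0.1.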
